A study of Mus musculus with 3 samples.

Results

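Prostaglandins are lipid mediators made from arachidonic acid in 3 enzymatic steps, and the 6 mouse genes described here encode enzymes of each step. Pla2g4a encodes cytosolic phospholipase A2 alpha, which frees arachidonic acid from membrane phospholipids. Ptgs1 and Ptgs2 encode the cyclooxygenases COX-1 and COX-2, which turn it into the common intermediate prostaglandin H2. Ptges, Ptgds and Ptgis encode terminal synthases, which turn that intermediate into prostaglandin E2, prostaglandin D2 and prostacyclin. In blood vessels COX-1 is known as the form that endothelial cells carry at rest and COX-2 as the inducible form, while prostacyclin relaxes vessels and restrains platelets. The 6 genes were chosen as members of this pathway, with earlier results of these data known but not by a threshold on their values. All 6 were among the 3264 genes with a value in every cell.

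The values come from mouse mitral valves. The 3 listed samples are all labelled with the strain B6.129-Fbn1tm2Rmz/J, called mgR, and valves were taken at 12 weeks of age. These mice carry a hypomorphic allele of Fbn1, the gene of the matrix protein fibrillin-1, in both copies and develop a myxomatous valve. The samples share 1 matrix whose cell barcodes name no mouse, genotype, treatment or library. The study describes single cells of wild-type and mgR valves as well as single nuclei of wild-type, mgR and rapamycin-treated mgR valves (8 weeks of treatment), so which of these any barcode belongs to is not known. The matrix was therefore treated as 1 sample, no condition was compared and no test was run. Ranges after values are 95% exact intervals for counting error alone, and the spread between mice is not in them.

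The matrix held 16383 cell barcodes, called cells here, with 503 to 23127 unique molecular identifiers (UMIs, 1 per captured transcript) per cell and a median of 5349. The barcodes stand in 2 alphabetical runs of 14222 and 2161 cells, with 11 barcodes in both and median depths of 5154 and 6918 UMIs. What the runs are is not given in the sources used here, and run values are given beside the main levels and ratios of the 6 genes. Shares of cells are over both runs together. A level is the number of a gene's UMIs among every 10000 UMIs that the cells of a group hold together. Levels are compared between groups of cells for 1 gene at a time, and not between genes.

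Cells were grouped by marker UMIs. Fibroblasts (3051 cells) had at least 2 of Prrx1, Col3a1 and Dpt and no Egfl7, endothelial cells (8787) had Egfl7 and fewer than 2 of those 3, Ptprc cells (485) had the leukocyte antigen Ptprc, and melanocytes (96) had at least 2 of Mlph, Pax3 and Slc24a5. The 279 cells that met more than 1 of these rules were set aside, as were 403 cells with both fibroblast genes and Egfl7 and 3282 cells that met none. Wider marker lists, which include the genes of the rules, were checked in each group. All 8 endothelial genes in the matrix were higher in the endothelial cells, at a summed level of 25.1 against 2.06 to 3.06 in the other groups. All 12 leukocyte genes were higher in the Ptprc cells, at a summed level of 70.0 against 0.397 to 1.19, and all 4 melanocyte genes were higher in the melanocytes, at 45.7 against 0.102 to 0.304. Of other cell types, the 5 mural genes summed to 0.328 in fibroblasts and 0.00878 in endothelial cells, the 4 cardiomyocyte genes to 1.54 in endothelial cells and 0.114 in fibroblasts, the 5 T cell genes to 0.898 in Ptprc cells, the 2 mast cell genes to 0.109 in endothelial cells, and the 3 neutrophil genes to 0.000954 in endothelial cells and 0 elsewhere. The matrix holds 0 of the 4 mesothelial genes.

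Pla2g4a and Ptgs2 are neighbours on chromosome 1 (GRCm38, GENCODE M21). Pla2g4a spans chr1:149829618-149961290 on the minus strand and Ptgs2 spans chr1:150100031-150108227 on the plus strand, 138.7 kb away. The noncoding gene Ptgs2os ends 67 bases before the start of Ptgs2, on the opposite strand. The other 4 genes lie on chromosome 2, Ptgds at chr2:25466709-25470046 (minus), Ptges at chr2:30889471-30929863 (minus), Ptgs1 at chr2:36230426-36252272 (plus) and Ptgis at chr2:167191805-167240604 (minus). Ptgis overlaps 1110018N20Rik and Gm14291 on the opposite strand. These were counted at 220 and 27 UMIs in all cells against 36741 for Ptgis, and whether the counting used strand is not stated.

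The sequences just before the starts of both cyclooxygenase genes and of Ptges are shown because Ptgs1 and Ptges had the widest ratios of the 6 genes between fibroblasts and endothelial cells, in opposite directions, and Ptgs2 is the other cyclooxygenase. Each is 250 bases upstream of the start in RefSeq (GRCm38.p6), 5′ to 3′ on the gene's own strand, and capitals mark GGGCGG, the GC box. 183 bases of the Ptgs2 stretch are exon of Ptgs2os on the other strand, and 0 bases of the other 2 are exon of a GENCODE transcript, though the Ptges stretch lies within the longer GENCODE span of that gene.
Ptgs1, chr2:36230176-36230425, plus strand: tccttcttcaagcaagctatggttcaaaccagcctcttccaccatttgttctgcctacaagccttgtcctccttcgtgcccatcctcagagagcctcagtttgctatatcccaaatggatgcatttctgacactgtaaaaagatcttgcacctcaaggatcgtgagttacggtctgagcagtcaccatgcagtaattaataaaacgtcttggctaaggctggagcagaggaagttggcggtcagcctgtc
Ptgs2, chr1:150099781-150100030, plus strand: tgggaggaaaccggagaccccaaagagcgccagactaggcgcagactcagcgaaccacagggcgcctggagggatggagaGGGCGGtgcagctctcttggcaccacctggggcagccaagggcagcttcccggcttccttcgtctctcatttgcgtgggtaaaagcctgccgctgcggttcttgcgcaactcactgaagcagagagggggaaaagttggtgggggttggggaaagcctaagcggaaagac
Ptges, chr2:30903298-30903547, minus strand: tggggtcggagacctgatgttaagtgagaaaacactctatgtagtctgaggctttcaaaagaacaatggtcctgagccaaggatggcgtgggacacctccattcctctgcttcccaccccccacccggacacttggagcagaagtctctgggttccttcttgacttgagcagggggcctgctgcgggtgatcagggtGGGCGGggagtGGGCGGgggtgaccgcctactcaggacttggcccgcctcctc
The Ptgs2 stretch held 1 GC box, starting 170 bases before the start, and 61.6% G and C, and the Ptges stretch held 2, at 53 and 42 bases before it, and 59.6% G and C. The Ptgs1 stretch held none and 48.0% G and C. Over 32851 mouse promoters of the same length, 32.7% held GGGCGG on either strand and the median G and C content was 52.4%. None of the 3 stretches held TATAAA (12.4% of promoters), CCAAT (33.9%), CACGTG (6.02%) or TGANTCA (6.75%). A match here is a description of the letters and not a bound site.

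The groups differed most in 1 cyclooxygenase and 2 of the terminal synthases. Ptgs1 was 32.7-fold (28.8 to 37.2) higher in endothelial cells than in fibroblasts, Ptges was 35.9-fold (19.99 to 70.8) higher in fibroblasts, and Ptgds was 217-fold higher in melanocytes than in all other grouped cells. Ptgis and Pla2g4a were found in both fibroblasts and endothelial cells, within 2-fold of each other. Between fibroblasts and endothelial cells 2 of the 6 genes (Ptges and Ptgds) were at least 2-fold higher in fibroblasts, 1 (Ptgs1) was at least 2-fold lower and 3 were within 2-fold. Of 2797 genes with at least 20 UMIs in both groups together, 36.2% were past 2-fold either way, 20.2% higher and 16% lower in fibroblasts, and with 6 genes a count of 3 past 2-fold says little against that background.

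**Figure D1:**
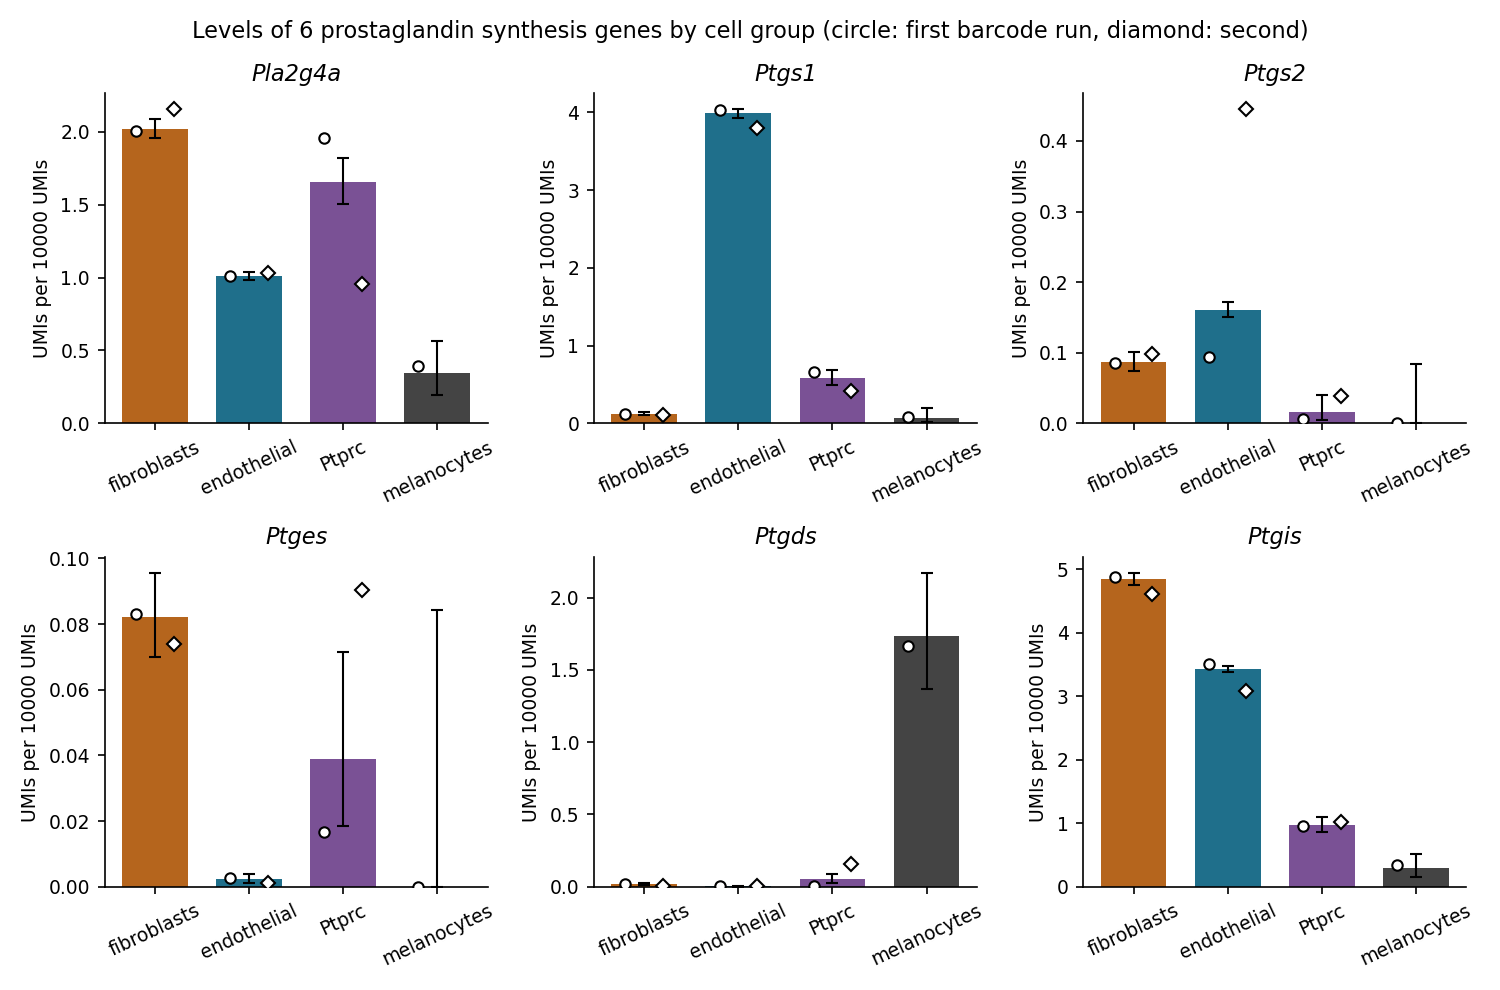
Level of each of the 6 genes (UMIs per 10000 UMIs, linear axis from 0, own scale per panel) in fibroblasts, endothelial cells, Ptprc cells and melanocytes. Bars are levels over both barcode runs with 95% exact Poisson intervals, circles the first run and diamonds the second (not drawn for melanocytes, of which the second run held 8). Ptgs1 stood at 3.99 in endothelial cells against 0.122 in fibroblasts, Ptgds at 1.74 in melanocytes, and the Ptgs2 circle and diamond of endothelial cells were far apart, at 0.0937 and 0.445.

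The first step, release of arachidonic acid, was the most widely spread over the groups. Pla2g4a stood at 2.02 (1.96 to 2.09) in fibroblasts, 1.66 (1.502 to 1.82) in Ptprc cells, 1.01 (0.986 to 1.04) in endothelial cells and 0.343 (0.192 to 0.565, 15 UMIs) in melanocytes. The order was fibroblasts, Ptprc cells, endothelial cells and melanocytes, and no 2 neighbouring intervals overlapped. Fibroblasts over endothelial cells gave 1.996 (1.92 to 2.08), at the 2-fold limit. With each cell thinned to 2000 UMIs, so that depth is equal, 26.3% (24.7 to 27.9) of fibroblasts, 22.9% (19.0 to 27.2) of Ptprc cells, 14.7% (13.9 to 15.5) of endothelial cells and 4.65% (1.28 to 11.5) of melanocytes had a UMI (48.2%, 37.7%, 29.9% and 9.38% without thinning). The levels of fibroblasts (2.01 and 2.16) and endothelial cells (1.01 and 1.03) were close in both runs. In Ptprc cells the first run gave 1.96 (1.76 to 2.17) and the second 0.956 (0.751 to 1.20), and there its interval overlapped that of endothelial cells.

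Ptgs1 was found mainly in endothelial cells. They held 20899 of its 24992 UMIs, 83.6%, at a level of 3.99 (3.93 to 4.04), with 4.03 in the first run and 3.798 in the second. The level was 0.583 (0.494 to 0.684) in Ptprc cells, 0.122 (0.107 to 0.138) in fibroblasts and 0.0685 (0.0141 to 0.2002) in melanocytes, where all 3 UMIs were in 1 cell. Where Leiden clusters replaced the marker rule, the levels were 3.86 in endothelial clusters and 0.296 in fibroblast clusters, a narrower gap. With the marker rule, fibroblast and melanocyte intervals overlapped, and those of the other neighbours did not. At 2000 UMIs per cell 49.97% (48.9 to 51.1) of endothelial cells had a Ptgs1 UMI, 8.80% (6.30 to 11.9) of Ptprc cells, 2.10% (1.61 to 2.68) of fibroblasts and 1.16% (0.0294 to 6.31) of melanocytes (74.7%, 17.7%, 6.23% and 1.04% without thinning). The median depths of these groups before thinning were 5341, 4902, 6007 and 4117 UMIs. The fibroblast rule asked for no Egfl7 UMI, and whether the Ptgs1 share in fibroblasts is background was not tested. Beside the Ptgs1 of Ptprc cells stand the listed endothelial genes, Eng at 1.09 in Ptprc cells against 12.4 in endothelial cells and Thbd at 0.257 against 1.76. In the same order Nostrin stood at 0.529 and 1.165, Cd34 at 0.350 and 1.96, and Procr at 0.0544 and 0.282. Sox18 stood at 0.0194 and 0.141, Sox17 at 0.00778 and 0.0933, and Egfl7, a gene of the grouping rule, at 0.2255 and 7.27. Their part in the Ptgs1 level of Ptprc cells was not tested.

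Ptgs2, the inducible cyclooxygenase, was rare and unevenly spread. Its level was 0.161 (0.150 to 0.172, 843 UMIs) in endothelial cells, 0.0866 (0.0742 to 0.101, 174 UMIs) in fibroblasts and 0.0156 (0.00424 to 0.0398, 4 UMIs) in Ptprc cells. Melanocytes had 0 UMIs, which allows a level of up to 0.0685. Endothelial cells over fibroblasts gave 1.86 (1.58 to 2.20), but the runs did not share it. The first run gave 1.10 (0.910 to 1.33) and the second 4.52 (2.89 to 7.47). Fibroblasts were at 0.0853 and 0.0985 in the first and second runs, while endothelial cells were at 0.0937 (0.0847 to 0.103) and 0.445 (0.405 to 0.488), a ratio of 4.75 (4.14 to 5.45) between the runs.

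Of the 2603 genes compared between runs in endothelial cells 2.69% were at least 2-fold higher in the second run and 8.37% lower (11.1% either way), and of the members with enough UMIs Ptgs2 was the 1 of 4 that was. Of the genes listed as inducers of Ptgs2 and Ptges, Cebpb, a transcription factor of inflammatory responses, was also higher in the second run. It stood at 0.0323 (0.0271 to 0.0382) in first-run and 0.341 (0.306 to 0.379) in second-run endothelial cells, at 0.0637 and 0.310 in fibroblasts and at 0.2001 and 1.73 in Ptprc cells, so it was higher in fibroblasts too, where the Ptgs2 intervals of the runs overlapped. Of the other listed inducers in endothelial cells, Creb1 stood at 1.58 in the first run and 1.83 in the second, and Atf2 at 1.29 and 1.52. Il1b had 6 and 10 UMIs, at 0.00142 and 0.00998, while Il1rn had 0 and 4 UMIs and Il1rl1 had 2 and 1. Il1r1 and Il1a went the other way. The interleukin-1 receptor gene Il1r1 stood at 1.54 in the first run and 1.07 in the second, and the ligand gene Il1a had 37 and 2 UMIs, at 0.00873 and 0.00200. The part of the runs in the Ptgs2 level of endothelial cells was not tested, and run cannot be told apart from library, genotype or preparation.

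Few cells carried a large share of the Ptgs2 UMIs. Of 8787 endothelial cells, 331 had any, 194 of these had 1, and the 36 cells with 5 or more (0.410% of cells, 0.287 to 0.567) held 401 of 843 UMIs, 47.6%. One cell held 61. The 36 cells were split as 15 of 7469 in the first run and 21 of 1318 in the second. In fibroblasts 8 of 3051 cells had 5 or more UMIs and held 33.3% of 174. Ptgs1 was spread differently over the same endothelial cells, with 1906 cells at 1 UMI, 1453 at 2, 1743 at 3 to 4, 1287 at 5 to 9 and 172 at 10 or more, and these last held 9.96% of its UMIs against 31.7% for the 15 cells with 10 or more of Ptgs2.

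**Figure D2:**
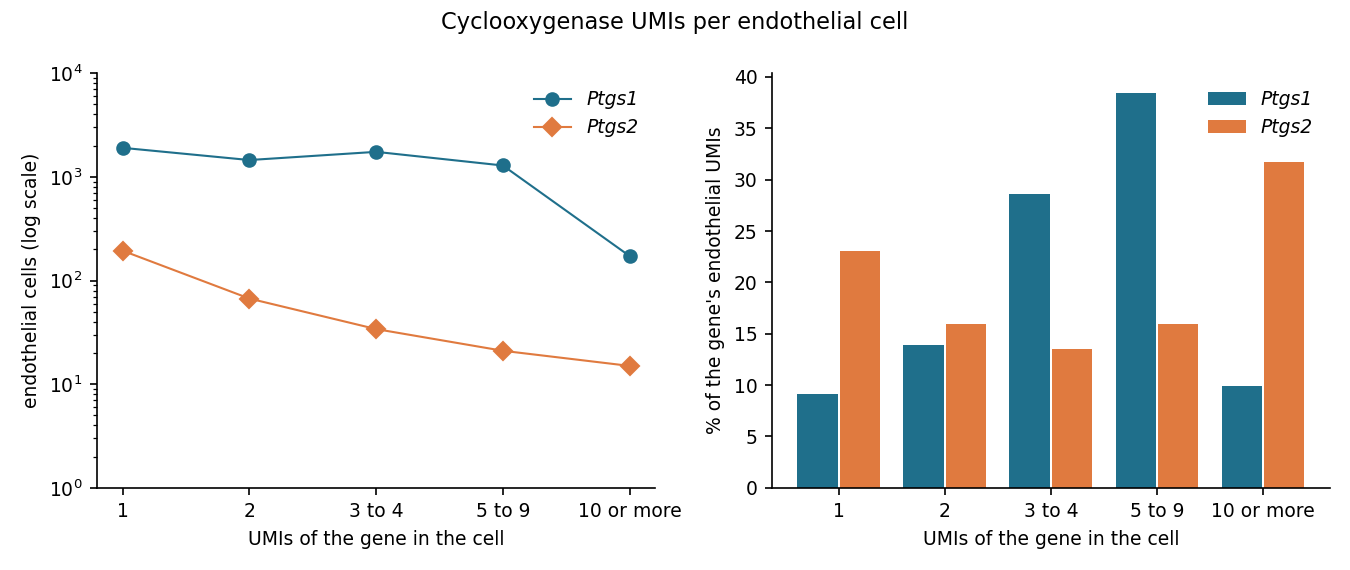
Endothelial cells by their UMIs of Ptgs1 and of Ptgs2. Left, the number of cells (log axis) in each class of UMIs per cell, and right, the percent of the gene's endothelial UMIs held by that class. For Ptgs2 the number of cells fell from 194 at 1 UMI to 15 at 10 or more, and these 15 held 31.7% of its UMIs.

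At 2000 UMIs per cell 1.81% (1.53 to 2.12) of endothelial cells, 1.12% (0.769 to 1.56) of fibroblasts, 0 of 432 Ptprc cells and 0 of 86 melanocytes had a Ptgs2 UMI (3.77%, 2.88%, 0.825% and 0 without thinning), and the exact upper limits of the last pair were 0.850% and 4.199%. The opposite-strand neighbour Ptgs2os was counted at 369 UMIs in all, at 0.0478 in fibroblasts and 0.0376 in endothelial cells. It did not follow the order of Ptgs2 between the 2 groups.

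The terminal synthases divided the groups. Ptges, the inducible prostaglandin E synthase, stood at 0.0821 (0.0701 to 0.0957, 165 UMIs in 144 cells) in fibroblasts and 0.00229 (0.00118 to 0.00400, 12 UMIs in 11 of 8787 cells) in endothelial cells. Fibroblasts were at 0.0831 in the first run and 0.0739 in the second. The level of Ptprc cells, 0.0389 (0.0186 to 0.0715), rested on 10 UMIs in 7 cells, 7 of them in the second run. Melanocytes had 0 UMIs, which allows 0.0685, so a level like that of Ptprc cells could not have been seen there. At 2000 UMIs per cell 1.42% (1.03 to 1.91) of fibroblasts and 0.0243% (0.00294 to 0.0878) of endothelial cells had a Ptges UMI (4.72% and 0.125% without thinning). Ptges2, another enzyme able to make prostaglandin E2, was higher in endothelial cells at 0.0523 (0.0463 to 0.0589) than in fibroblasts at 0.0299 (0.0228 to 0.0384), a ratio of 1.75 (1.32 to 2.36), with 0.0500 against 0.0288 in the first run and 0.0619 against 0.0394 in the second.

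Ptgds was sparse in all but the smallest group. The 96 melanocytes held 76 of its 186 UMIs, at a level of 1.74 (1.37 to 2.17), in 35 cells, none with more than 5. Over all other grouped cells the level was 0.00799, a ratio of 217 (153 to 310), higher than for 99.7% of 2871 genes. The 88 melanocytes of the first run gave 1.67 (1.28 to 2.13) and the 8 of the second 2.23 (1.15 to 3.89). After thinning 16.3% (9.20 to 25.8) of melanocytes had a UMI, against 0.608% (0.361 to 0.960) of fibroblasts and 0.0365% (0.00752 to 0.107) of endothelial cells (36.5%, 0.951% and 0.125% without thinning). The level of Ptprc cells, 0.0505 (0.0269 to 0.0864), came from 13 UMIs in 3 cells, 10 of them in 1 cell. Fibroblasts, at 0.0179 (0.0126 to 0.0248, 36 UMIs), were 8.54-fold (4.25 to 18.6) above endothelial cells at 0.00210 (0.00105 to 0.00376, 11 UMIs), and 35 of the 36 fibroblast UMIs were in the first run. With 1 fibroblast and 4 endothelial UMIs in the second run the groups could not be compared there, and with Leiden clusters in place of the marker rule the Ptgds levels of fibroblasts and endothelial cells were 0.0241 and 0.00179.

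Ptgis, the prostacyclin synthase, was measured at depth in both large groups. It stood at 4.85 (4.75 to 4.94) in fibroblasts, 3.43 (3.38 to 3.48) in endothelial cells, 0.972 (0.855 to 1.10) in Ptprc cells and 0.297 (0.158 to 0.508, 13 UMIs) in melanocytes, and none of these intervals overlapped. Fibroblasts over endothelial cells gave 1.41 (1.38 to 1.45), and the run values were 4.87 and 4.61 in fibroblasts and 3.51 and 3.09 in endothelial cells. At 2000 UMIs per cell 50.5% (48.6 to 52.3) of fibroblasts and 40.3% (39.3 to 41.4) of endothelial cells had a UMI, against 11.3% (8.51 to 14.7) of Ptprc cells and 3.49% (0.725 to 9.86) of melanocytes (74.5%, 61.3%, 16.3% and 7.29% without thinning). In Ptprc cells 10 of the 485 cells held 47.2% of the 250 Ptgis UMIs. Beside the Ptgis of Ptprc cells stands the fibroblast gene Col3a1, at 0.599 in Ptprc cells against 5.71 in fibroblasts. Ptprc cells that also met the fibroblast rule, which uses Col3a1, had been set aside. The part of fibroblast transcripts in the Ptgis level of Ptprc cells was not tested.

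**Figure D3:**
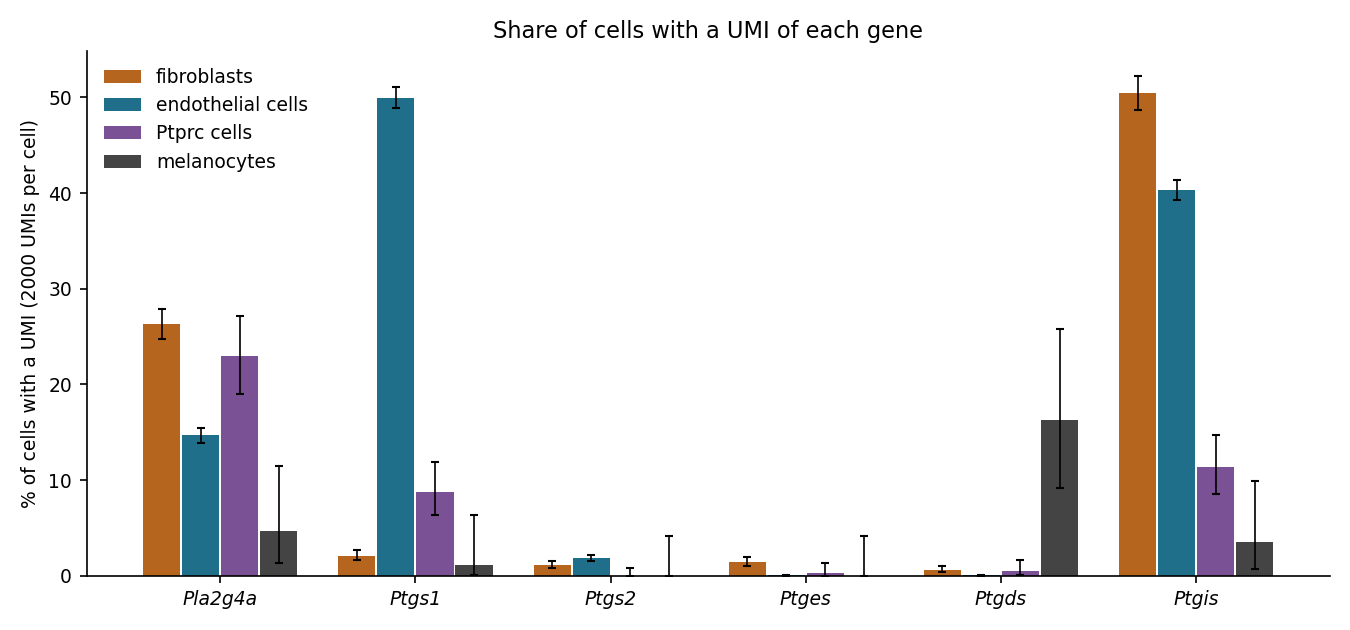
Percent of cells with at least 1 UMI of each gene, every cell thinned to 2000 UMIs, in fibroblasts, endothelial cells, Ptprc cells and melanocytes, with 95% exact binomial intervals. Ptgis was found in 50.5% of fibroblasts and 40.3% of endothelial cells, Ptgs1 in 49.97% of endothelial cells and 2.10% of fibroblasts, and Ptges in no more than 1.42% of any group.

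Against all other grouped cells, Ptprc cells had 1 of the 6 genes at least 2-fold higher (Ptgds, on 13 UMIs in 3 cells), 3 lower (Ptgs1, 4.97-fold, 4.23 to 5.88; Ptgs2, 8.97-fold, 3.49 to 33.0; and Ptgis, 3.91-fold, 3.45 to 4.44) and 2 within 2-fold. The Ptgds call turned to lower in the first run alone, at a ratio of 0.319 on 1 UMI, with Leiden clusters, at 0.423 on 3 UMIs, and without the 10 cells with the most UMIs, while the second run gave 11.05 on 12 UMIs. Ptges was also 6.85-fold (2.38 to 17.6) higher in Ptprc cells of the second run, on 7 UMIs. Of 2871 genes compared, 41.6% were past 2-fold, 16.8% higher and 24.7% lower. Melanocytes had Ptgds higher and the other 5 lower, where 12.5% of all 2871 genes were higher and 39.9% lower (52.4% either way). The lower calls of Ptgs2 and Ptges in melanocytes rest on 0 UMIs. The level of Ptges over the other grouped cells, 0.0249, is under the 0.0685 that 0 UMIs allow, so its difference was not detectable at this depth.

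Endothelial cells were split by the pair of genes with the most UMIs in the cell, which gave 3263 cells for Prox1/Kif26b, 1079 for Tmem163/Kcnh1 and 2576 for Selp/Fmo2, with 1869 cells in none. Each subgroup was compared with the other subgroups together, and the 1869 cells in none were left out. Prox1 is a transcription factor known from lymphatic endothelium and Selp encodes P-selectin, an adhesion molecule for leukocytes. Ptgs2 and Ptgis were ordered differently over these subgroups. Ptgs2 stood at 0.271 (0.248 to 0.295) in Prox1/Kif26b cells, 0.117 (0.101 to 0.136) in Selp/Fmo2 cells and 0.0523 (0.0372 to 0.0715, 39 UMIs) in Tmem163/Kcnh1 cells. The order was the same in the first run, at 0.162, 0.0641 and 0.0375, and in the second, at 0.599, 0.311 and 0.245, where the intervals of the last pair overlapped. Prox1/Kif26b cells were 2.83-fold (2.41 to 3.32) above the other subgroups together in Ptgs2. The ratio was 2.98 (2.36 to 3.79) when the first run was taken alone and 1.985 (1.59 to 2.48), just within 2-fold, for the second. That made 1 of the 4 genes with enough UMIs higher and 0 lower, where 10.9% of 2550 genes were past 2-fold either way, 4.04% higher and 6.86% lower. Tmem163/Kcnh1 cells were 3.90-fold (2.83 to 5.53) below the other subgroups together in Ptgs2, 1 of 4 genes lower, where 13.7% were past 2-fold, 5.41% higher and 8.31% lower. Taken alone, the first run gave 3.16 (2.12 to 4.91) and the second 1.97 (1.14 to 3.73), both smaller than over the runs together and the last within 2-fold. The second run, where Ptgs2 was higher, held 62 of the 1079 Tmem163/Kcnh1 cells. Ptgs2os was ordered like Ptgs2 over the subgroups, at 0.0569, 0.0360 and 0.0161.

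Ptgis ran from 4.37 (4.26 to 4.47) in Selp/Fmo2 cells over 3.798 (3.66 to 3.94) in Tmem163/Kcnh1 cells to 2.28 (2.21 to 2.35) in Prox1/Kif26b cells. Prox1/Kif26b cells were lowest in both runs, at 2.31 and 2.201, and also where both genes of a pair were required, which gave 1.55, against 2.46 in Tmem163/Kcnh1 and 4.27 in Selp/Fmo2 cells. Thinned in the same way, 51.2% (49.2 to 53.2) of Selp/Fmo2 cells, 46.2% (43.2 to 49.3) of Tmem163/Kcnh1 cells and 26.4% (24.9 to 28.0) of Prox1/Kif26b cells had a Ptgis UMI. Against the other subgroups together, Selp/Fmo2 cells were 1.62-fold (1.57 to 1.68) higher in Ptgis. There 0 of 4 members were past 2-fold, where 10.2% of genes were, 5.14% higher and 5.1% lower. Ptgs1 varied less, at 4.51 (4.42 to 4.61) in Prox1/Kif26b, 3.75 (3.66 to 3.85) in Selp/Fmo2 and 3.38 (3.25 to 3.51) in Tmem163/Kcnh1 cells, and in the second run, at 3.93, 3.70 and 3.47, the neighbouring intervals overlapped. Pla2g4a was highest in Tmem163/Kcnh1 cells, at 1.27 (1.19 to 1.35), against 1.002 (0.953 to 1.05) in Selp/Fmo2 and 0.857 (0.816 to 0.898) in Prox1/Kif26b cells. Ptges and Ptgds had 0 to 8 UMIs per subgroup, too few to compare.

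**Figure D4:**
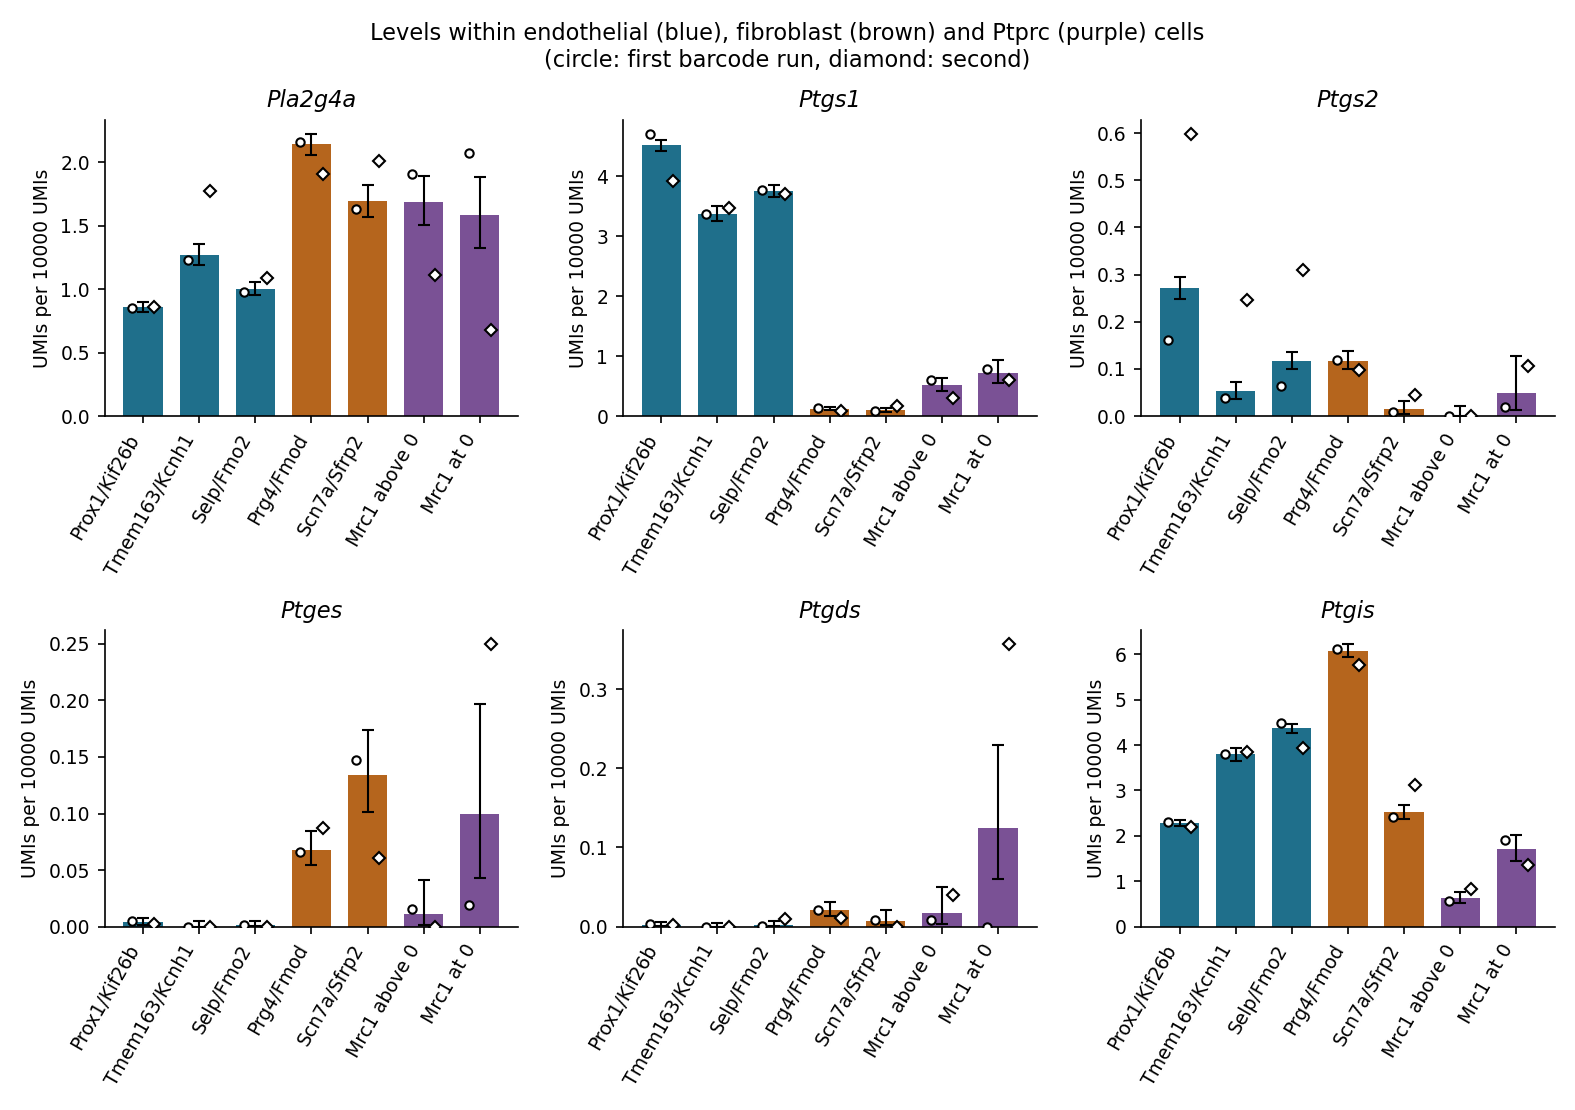
Levels of the 6 genes (UMIs per 10000 UMIs, linear axis from 0, own scale per panel) in 3 endothelial, 2 fibroblast and 2 Ptprc subgroups. Bars are levels over both barcode runs with 95% exact Poisson intervals, circles the first run and diamonds the second. Ptgs2 was highest in Prox1/Kif26b cells (0.271) and Ptgis in Prg4/Fmod fibroblasts (6.08), while Ptges stood higher in Scn7a/Sfrp2 (0.134) than in Prg4/Fmod fibroblasts (0.0680).

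Fibroblasts were split in the same way into 1764 cells for Prg4/Fmod, genes of a joint lubricant and of a matrix proteoglycan, 601 for Scn7a/Sfrp2, a sodium channel gene and a Wnt modulator, and 686 with neither pair ahead. Ptgis stood at 6.08 (5.94 to 6.22) in Prg4/Fmod and 2.53 (2.38 to 2.69) in Scn7a/Sfrp2 fibroblasts, a ratio of 2.40 (2.25 to 2.57), with 6.11 against 2.42 in the first run and 5.76 against 3.13 in the second, where the ratio of 1.84 (1.56 to 2.17) was within 2-fold. With thinning 60.3% (58.0 to 62.6) and 32.9% (29.1 to 36.8) of these cells had a UMI. Ptgs2 stood at 0.118 (0.0992 to 0.139, 142 UMIs) and 0.0143 (0.00526 to 0.0312, 6 UMIs), a ratio of 8.21 (3.68 to 22.8). The first run gave 14.04 (4.70 to 68.9) on 133 and 3 UMIs and the second 2.14 (0.535 to 12.3) on 9 and 3. Ptges was ordered the other way, at 0.0680 (0.0541 to 0.0844, 82 UMIs) in Prg4/Fmod and 0.134 (0.101 to 0.174, 56 UMIs) in Scn7a/Sfrp2 fibroblasts, a ratio of 1.97 (1.38 to 2.80). The first run alone gave 2.22 (1.53 to 3.21), past 2-fold, while in the second, on 8 and 4 UMIs, the order turned, at 0.0872 and 0.0610. With Ptgds (25 against 3 UMIs, interval 0.882 to 14.96), 3 of the 6 genes were at least 2-fold higher in Prg4/Fmod fibroblasts and 0 lower, where 14% of 2384 genes were past 2-fold, 7.09% higher and 6.92% lower. Pla2g4a was 1.26-fold (1.16 to 1.38) higher in Prg4/Fmod than in Scn7a/Sfrp2 fibroblasts, but the first run gave a ratio of 1.32 (1.21 to 1.45) and the second 0.948 (0.752 to 1.197). For Ptgs1 the ratio was 1.29 (0.912 to 1.88), where the first run gave 1.53 (1.03 to 2.35) and the second 0.520 (0.182 to 1.42, 8 and 11 UMIs), so the direction of both genes turned between the runs.

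Of the Ptprc cells 311 had a UMI of Mrc1, the macrophage mannose receptor, and 174 had none. Ptgis was 2.68-fold (2.07 to 3.47) lower where Mrc1 was found, at 0.638 against 1.71, the 1 lower call among 3 genes with enough UMIs, where 21% of 1819 genes were past 2-fold, 7.04% higher and 14% lower. The first run gave 3.37-fold (2.46 to 4.63) and the second 1.63-fold (1.02 to 2.601), so the call did not hold in the second. Pla2g4a stood at 1.69 (1.503 to 1.89) and 1.58 (1.32 to 1.89), and Ptgs1 at 0.520 (0.419 to 0.637) and 0.724 (0.549 to 0.935). Cells with Mrc1 over those without gave ratios for Pla2g4a of 0.922 (0.733 to 1.17) on the first run and 1.64 (0.961 to 2.93) on the second, and for Ptgs1 of 0.767 (0.518 to 1.15) and 0.501 (0.233 to 1.07). All 4 Ptgs2 UMIs, 8 of 10 of Ptges and 10 of 13 of Ptgds were in cells without Mrc1, which had a lower median depth, 4212 against 5199 UMIs.

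Because the 3 steps act in sequence, their genes were also counted in the same cell, at 2000 UMIs per cell. A cyclooxygenase gene was found in 51.0% (49.9 to 52.1) of endothelial cells and 3.18% (2.58 to 3.87) of fibroblasts, and a terminal synthase gene in 40.4% (39.3 to 41.4) and 51.6% (49.8 to 53.4). A synthase gene with no cyclooxygenase gene was found in 49.3% (47.5 to 51.1) of fibroblasts and 19.7% (18.9 to 20.6) of endothelial cells. A gene of each of the 3 steps was found in 2.90% (2.55 to 3.29) of endothelial cells, 0.777% (0.493 to 1.16) of fibroblasts, 2 of 432 Ptprc cells and 0 of 86 melanocytes. None of the 6 genes was found in 24.8% of endothelial cells, 35.6% of fibroblasts, 64.1% of Ptprc cells and 75.6% of melanocytes. A gene at 0 UMIs in a cell of this depth may still be expressed.

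In endothelial cells the shares of Ptgs1 and Ptgis did not move with each other. Ptgis was found in 40.5% (39.0 to 42.0) of cells with and 40.2% (38.7 to 41.7) of cells without a Ptgs1 UMI. Pla2g4a was found in 25.5% (18.7 to 33.3) of the 149 endothelial cells with Ptgs2 and 14.5% (13.7 to 15.3) of those without. In fibroblasts the corresponding shares of Pla2g4a were 45.5% (28.1 to 63.7) of 33 cells with Ptgs2 and 26.1% (24.5 to 27.7) of those without, and those of Ptgis were 81.8% (64.5 to 93.0) and 50.1% (48.3 to 51.9). Of these 33 cells 26 were Prg4/Fmod fibroblasts, a subgroup in which 60.3% had a Ptgis UMI. The part of the subgroup in these shares was not tested. Ptges was found in 0 of the 33 fibroblasts with Ptgs2, which allows up to 10.6%, and in 1.44% (1.04 to 1.94) of those without.

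Of 67 other genes listed for the pathway and its inducers, 16 are in the matrix, and the prostanoid receptors and the genes of transport and breakdown are not among them. Between fibroblasts and endothelial cells 2 of the 16 were at least 2-fold higher in fibroblasts, 1 was lower, 10 were within 2-fold and 3 had too few UMIs, where 20.2% of all genes compared were higher and 16% lower. Il1r1, the interleukin-1 receptor through which both Ptgs2 and Ptges are known to be induced, stood at 3.96 (3.87 to 4.05) in fibroblasts and 1.45 (1.42 to 1.48) in endothelial cells, a ratio of 2.74 (2.65 to 2.83), with 4.06 against 1.54 in the first run and 3.11 against 1.07 in the second. Over both runs together Il1r1 was at 3.21 (3.12 to 3.30) in endothelial Selp/Fmo2, 1.055 (0.982 to 1.131) in Tmem163/Kcnh1 and 0.540 (0.508 to 0.573) in Prox1/Kif26b cells. It was thus lowest in Prox1/Kif26b cells, where Ptgs2 was highest, while Ptgs2 was lowest in Tmem163/Kcnh1 cells. Within fibroblasts Il1r1 was at 5.79 (5.56 to 6.02) in Scn7a/Sfrp2 and 3.38 (3.28 to 3.49) in Prg4/Fmod cells. Ptges had the same order over both runs together but not in the second run. Ptgs2 had the opposite order, at 0.0143 in Scn7a/Sfrp2 and 0.118 in Prg4/Fmod cells. The part of Il1r1 in the levels of Ptgs2 and Ptges was not tested. Pla2g4b, a relative of Pla2g4a, was 4.18-fold (2.98 to 5.91) higher in fibroblasts on 93 and 58 UMIs. The lower gene was Il1a, with 0 UMIs in fibroblasts and 39 in endothelial cells.

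In Ptprc cells 8 of the 16 were at least 2-fold higher than in the other grouped cells, 2 were lower, 5 were within 2-fold and 1 had too few UMIs, where 16.8% of all genes compared were higher and 24.7% lower. The higher genes included the ligand Il1b, at 2.05 (1.87 to 2.23) against 0.00305 to 0.00448 in endothelial cells and fibroblasts and 0 UMIs in melanocytes, and Cebpb at 0.661 (0.565 to 0.768). Il1b in Ptprc cells differed between the runs, 0.634 (0.523 to 0.761) against 5.33 (4.82 to 5.87). Some of the higher calls rest on few cells. Pla2g4f had 7 UMIs in 1 Ptprc cell and Mgst2 had 6 UMIs in 6 cells. Il1rn had 61 UMIs in 10 cells, 57 of them in 6 cells of the second run. Acsl3, which activates fatty acids such as arachidonic acid for return to lipids, was at 0.420 (0.344 to 0.507) in Ptprc cells and 0.777 (0.538 to 1.09) in melanocytes, against 0.162 in endothelial cells and 0.105 in fibroblasts. In melanocytes 1 of the 16, Acsl3, was higher, 8 were lower, 6 were within 2-fold and 1 had too few UMIs, where 12.5% of all genes compared were higher and 39.9% lower. Of the lower genes, Pla2g4f, Mgst2, Il1a, Il1b, Il1rn, Il1rl1 and Cebpb had 0 UMIs in melanocytes, which allows a level of up to 0.0685. Over all grouped cells Pla2g4f, Mgst2, Il1a, Il1rn and Il1rl1 were at 0.00384 to 0.0127, under that limit, so their differences were not detectable at this depth.

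The genes most like each member were sought over 11 profiles, each of fibroblasts, 1 of the 3 endothelial subgroups, Ptprc cells or melanocytes in 1 barcode run with at least 20 cells, among genes with at least 200 UMIs. Levels were taken as log2(level + 0.01). The profiles come from 1 matrix and from marker genes that made the groups, so r is given as a description. Ptgs1 was most like Ccm2l (Pearson's r = 0.990), Cd93 (0.987) and Egfl7 (0.980), the last a gene the grouping used. Ptges was most like Slc7a11 (0.975), Pappa2 (0.971) and Tnfaip6 (0.959). Ptgis was most like Sertad4 (0.971), Tmem237 (0.956) and Ttll11 (0.9503), and Pla2g4a most like Plpp7 (0.968), Gpr161 (0.894) and Mtmr11 (0.864). The nearest genes to Ptgs2 were Gm28791 (0.931), Hipk3 (0.924) and Rev1 (0.913). Ptgds had under 200 UMIs and was left out.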

How the data were processed

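RNA libraries of single cells or single nuclei of mouse mitral valves (10x Genomics 3' chemistry) were processed by the authors with Cell Ranger 7.1.0 on mm10, per the submitters' processing notes. Per the study's methods the authors then filtered cells and genes in Seurat, also by mitochondrial share, after sorting viable cells or nuclei. The deposited values are on a natural log scale, the log of 1 plus a gene's UMIs per 10000 of its cell, pooled by the authors over libraries. UMIs and each cell's total were recovered here as whole numbers for 100% of values within 0.02. The design had assumed such a pooled matrix. The matrix lists 3265 genes of chromosomes 1, 2 and 3, of which the last, with 11958 empty values, was left out, and the listed genes took up 15.7% of the UMIs in the median cell. Doublets were not called, and cells that met the rules of more than 1 group were set aside. Levels are summed UMIs per 10000 with exact Poisson intervals, ratios have exact conditional intervals, and shares, at 2000 UMIs per cell (1278 of 16383 cells were shallower), have exact binomial intervals (95%). A gene was compared where it had at least 20 UMIs in both groups together and was called past 2-fold. A count of 0 was read as allowing up to 3 UMIs. Genes named are the 6 members, the pathway genes of a written list, and the 3 genes most like each member with at least 200 UMIs. The members and lists were chosen with earlier results of these data known. Steps were tested on simulated data. The alternatives were Leiden clusters (50 components, 15 neighbours, 2000 variable genes, resolution 0.5), deeper cells, each barcode run, other marker rules, other weights and denominators, the 10 top cells left out, and other folds and minimums. Coordinates are from GENCODE M21 and upstream sequences from RefSeq, both GRCm38, which is mm10, and 5 of the 6 members matched the sequence table. Python 3.11.15, numpy 2.4.6, scipy 1.17.1, pandas 2.3.3, scanpy 1.11.5, igraph 0.11.9, scikit-learn 1.9.0 and matplotlib 3.10.9 were used.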

Additional observations from a re-analysis of the deposited data

How the results depend on the processing

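The highest group did not change under any of the 9 alternatives that gave levels for Pla2g4a, Ptgs1, Ptgs2, Ptgds and Ptgis, and under 8 of 9 for Ptges, where Ptprc cells, on 7 UMIs, stood highest in the second barcode run alone. Of 72 counts of members past the fold, 58 stayed within 1.5 times. The count higher in fibroblasts than in endothelial cells went from 2 to 1 in the second barcode run alone, where Ptges and Ptgds had too few UMIs and Pla2g4a passed 2-fold. Pla2g4a was also called higher in fibroblasts with all 3 fibroblast markers, with each cell weighted equally and at 1.5-fold. The count lower in fibroblasts went from 1 to 2 in the second run alone, without the 10 cells with the most UMIs of the gene, and at 1.5-fold, each time with Ptgs2 added. The count higher in Ptprc cells went from 1 to 0 with Leiden clusters, in the first run alone, with each cell weighted equally, without the 10 top cells and at 3-fold, and to 2 in the second run alone, with all 3 fibroblast markers and at 1.5-fold, since Ptgds and Ptges there rest on 13 and 10 UMIs. The count lower in Ptprc cells went from 3 to 5 without the 10 top cells, which held all UMIs of the sparse genes. The count lower in melanocytes went from 5 to 3 with cells of more than 1 group kept. Of 216 group levels 91 moved beyond their counting interval, 22 of them per 10000 UMIs of the listed genes, which rescales every level, and so did 52 of 120 subgroup levels, 30 of them in the second run alone. No paired analysis was possible because the barcodes carry no replicate, and for the same reason no library could be left out.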

Other observations

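Among the 3263 endothelial cells grouped by Prox1/Kif26b, the 197 with a Ptgs2 UMI were set beside the 3066 without, which had a lower median depth (5430 against 6663 UMIs). The genes with the largest ratio of levels, among genes with at least 100 UMIs, were Ptgs2os, the opposite-strand neighbour of Ptgs2, at 0.235 against 0.0429, a ratio of 5.47 (3.55 to 8.27), Fam107b at 1.03 against 0.222, a ratio of 4.67 (3.85 to 5.65), and Cenpf, a gene of dividing cells, at 0.235 against 0.0532, a ratio of 4.41 (2.89 to 6.57). The ratio of Ptgs2os was 5.50 in the first barcode run and 5.94 in the second, that of Cenpf 5.41 and 5.94, and that of Fam107b 1.42 and 6.91. These genes were picked for their ratio, so the values are a description with no test. In the 12 Leiden clusters, which were made without the members and the other pathway genes, Ptgs1 ran from 0.107 in the melanocyte cluster to 5.04 in 1 endothelial cluster, in which Ptgis was at 1.63 and Ptgs2 at 0.297.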
